A study of Oryctolagus cuniculus with 34 samples.

Results

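The genes described here were chosen by their mean ratio over rabbits in the supraspinatus muscle after rotator cuff repair. In the mean they were lower in the repaired than in the control muscle at both 1 and 2 weeks. At 8 weeks the mean was near the control or above it. Single rabbits differed from these means. The choice was made on CPM, the count of a gene as parts per 1000000 counts of its library. The log2 ratio of the repaired over the control shoulder, taken after adding 1 to each CPM and averaged over rabbits, had to be at most -0.7 at 1 and 2 weeks and at least -0.1 at 8 weeks, with a mean CPM of at least 2. Mitochondrial ribosomal protein genes and COX4I1, COX5A, DLD and PSMD14 were left out by name. These thresholds found 3 of 23669 genes, or 3 of the 10052 with a mean CPM of at least 2: ENSOCUG00000010579, ENSOCUG00000014252 and ENSOCUG00000028195. None of the 3 has a symbol among the human ortholog names at hand, which cover 3310 of the 12937 genes tested below, so nothing can be said of their function.

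The study followed muscle after a tendon that had been cut for 8 weeks was sutured back. Both supraspinatus muscles of 17 female New Zealand White rabbits, 6 months old, gave 34 libraries of messenger RNA from the posterior lateral region. Tissue was taken from 4 rabbits 1 week after repair, from 5 after 2 weeks, and from 4 each after 4 and 8 weeks. The left shoulder had tenotomy and repair; the right shoulder was the control. The labels name a sham operation, a cut of the skin, while the study's methods call the right shoulder unoperated, so whether the control skin was cut is unclear. Every time point is a different set of rabbits, and the control is the other shoulder of an operated animal. The 8-week repair library of rabbit 3, which failed quality control, is left out of all values below unless it is named. The libraries of 1 and 8 weeks and those of 2 and 4 weeks carry titles of 2 different series (16 and 18 libraries), so that a time course from 2 to 8 weeks crosses the series, while each repair to control difference stays within 1 series.

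After a tendon is cut its muscle loses tension, fibres atrophy and fat and connective tissue fill the space between them. Repair restores load and is itself a new injury to the muscle. Skeletal muscle fibres carry a few very abundant messages for sarcomere proteins and glycolytic enzymes, so the share of all reads left for other genes moves when those messages change.

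The 20 most abundant genes took 25.8 to 35.0% of counts in the repair libraries of 1 week and 37.9 to 40.4% in the controls. At 2 weeks the share was 14.9 to 38.1% in repair libraries and 32.4 to 36.2% in controls. The median log2 ratio of all 10052 genes on CPM was above 0, with 0.36, 0.20, 0.24 and 0.07 in the order of the 4 time points. With CPM scaled by the trimmed mean of M-values (TMM), a scaling that sets the bulk of genes level between libraries, the same medians were -0.03, -0.03, -0.01 and -0.01. At 1 week 18.3% of genes were below 0 on CPM and 53.01% with TMM scaling. On CPM a gene therefore had to fall further below the other genes to reach -0.7 at 1 week than at 8 weeks. With TMM scaling the same thresholds found 41 genes, which share 1 gene (ENSOCUG00000028195) with the 3 found on CPM; COX4I1 also met them and was left out by name. Both sets are described, 43 genes in all. Of the 41 genes, 11 have a symbol: MYOM2, LDB3, SH3BGR, MICAL2, UGP2, UBE2D1, CUEDC1, KPNA4, EMC9, GCOM1 and MLLT11. The values at 1, 2 and 8 weeks chose the genes, so they are given as a description without a test; the 4-week libraries took no part in the choice of genes through their ratios and are tested.

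ENSOCUG00000014252 was the most abundant of the 3 genes, with a mean of 635 CPM over the 33 libraries. At 1 week its control libraries stood at 708, 868, 640 and 638 CPM and its repair libraries at 313, 392, 380 and 440 CPM (rabbits 5, 6, 7 and 8). At 2 weeks the controls were at 813, 598, 769, 665 and 764 CPM and the repaired muscles at 294, 383, 552, 390 and 461 CPM (rabbits 59, 60, 61, 62 and 64). Repair and control libraries did not overlap at either time, and the repaired shoulder was the lower in 4 of 4 and 5 of 5 rabbits. The mean log2 ratio was -0.90 ± 0.31 (SD, n = 4) at 1 week and -0.82 ± 0.38 (SD, n = 5) at 2 weeks. At 4 weeks the controls lay at 794, 669, 773 and 685 CPM and the repaired muscles at 685, 692, 584 and 724 CPM (rabbits 63, 66, 67 and 68), with overlap. At 8 weeks the controls lay between 680 and 821 CPM, and the repair libraries of rabbits 1, 2 and 4 at 660, 681 and 943 CPM. The library of rabbit 3 that was left out held 659 CPM, against 680 CPM in its control. Without rabbit 59 the mean log2 ratio at 2 weeks was -0.65, short of the threshold.

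ENSOCUG00000010579 was less abundant and varied more among rabbits. Its control libraries at 1 week held 36.0, 21.3, 46.1 and 21.6 CPM and its repair libraries 8.92, 6.65, 7.42 and 19.9 CPM. Rabbit 8 hardly differed between shoulders, with a log2 ratio of -0.11, while rabbit 7 was at -2.48. At 2 weeks the controls held 8.62, 12.3, 24.7, 30.5 and 25.5 CPM and the repaired muscles 4.22, 4.64, 10.7, 6.34 and 8.51 CPM, lower in 5 of 5 rabbits although the ranges of the groups overlapped. The mean log2 ratio was -1.51 ± 1.01 (SD, n = 4) at 1 week and -1.37 ± 0.46 (SD, n = 5) at 2 weeks. At 4 weeks the controls were at 32.7, 63.2, 17.2 and 25.1 CPM and the repaired muscles at 41.6, 15.7, 22.3 and 24.3 CPM, lower in 2 of 4 rabbits. At 8 weeks the mean log2 ratio of -0.08 ± 0.71 (SD, n = 3) averaged 0.49 in rabbit 1, 0.15 in rabbit 2 and -0.88 in rabbit 4. The library of rabbit 3 held 1.14 CPM of this gene against 35.2 CPM in its control, a log2 ratio of -4.08. The mean at 8 weeks was -0.36 without rabbit 1, -0.19 without rabbit 2 and -1.08 with rabbit 3 added, each short of the threshold, and 0.32 without rabbit 4.

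ENSOCUG00000028195 was on or off. It had 54 to 180 counts (4.87 to 9.35 CPM) in 11 of 34 libraries and under 1 count in the other 23, and in 9 libraries its count was over 0.001 away from a whole number, which RSEM gives where reads fit more than 1 place. Counts of this gene are therefore uncertain, and an exact 0 can be an assignment of shared reads elsewhere. It was detected in 3 of 4 controls and 1 of 4 repair libraries at 1 week, and in 3 of 5 controls and 1 of 5 repair libraries at 2 weeks. At 4 weeks it had 4.87, 7.11 and 7.35 CPM in 3 controls and was listed at 0 in the fourth and in all 4 repair libraries. At 8 weeks it was listed at 0 in every control and had no more than 0.01 count in any repair library. Its log2 ratio of 0.00 at 8 weeks thus set 0 against 0, and it cannot be called back at the control level.

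**Figure D1:**
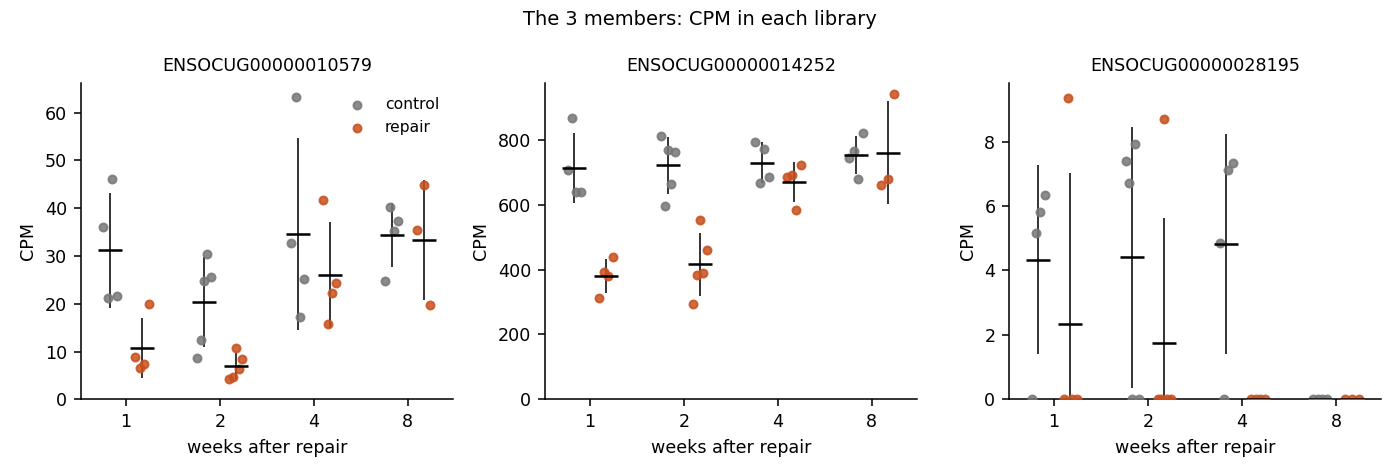
CPM of the 3 genes in each library (y axis, linear from 0) by weeks after repair (x axis); grey points are control and orange points repair libraries, lines are means and bars 1 SD, cut at 0. Repair libraries of ENSOCUG00000014252 lie at 294 to 552 CPM at 1 and 2 weeks, below every control of the same week, and ENSOCUG00000028195 is at 0 in all 8-week controls.

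With TMM scaling, ENSOCUG00000010579 and ENSOCUG00000014252 were as low as the thresholds ask at 1 and 2 weeks (-1.89 and -1.57, and -1.33 and -1.06) but stayed just short of the level asked at 8 weeks, with -0.16 and -0.13. Which genes count as back at 8 weeks depended on small differences. On CPM, 47 genes reached -0.7 at both early times at any level at 8 weeks, and 3 of them lay at or above -0.1 at 8 weeks. The nearest gene outside had -0.10 (-0.105), and the nearest with a symbol were DCUN1D2 at -0.34 and TWF2 at -0.46. The nearest genes outside the early thresholds on CPM were MYOM2 and LDB3 at 2 weeks, with -0.69 and -0.68, and MICAL2 and UGP2 at 1 week, with -0.52 and -0.48. With TMM scaling, 245 genes reached -0.7 at both early times. KPNA4 (-0.0995) and CUEDC1 (-0.097) were the named genes just inside the 8-week threshold, and BCL7B (-0.18) and GRB14 (-0.18) those just outside. At 1 week EMC9 (-0.71) and SH3BGR (-0.73) were just inside, and PAIP1 (-0.70, at -0.695) and RPA3 (-0.69) just outside. At 2 weeks SH3BGR (-0.73) and EMC9 (-0.78) were just inside, and ATP5IF1 (-0.64) and PPP1CB (-0.63) just outside.

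The 41 genes were mostly abundant. Their median level was 142 TMM-scaled CPM (2.38 to 3022), against 16.1 for all 9944 genes with a mean of at least 2, and 24 of the 41 were above 100. Adding 1 to each level shrinks the ratios of rare genes, so the thresholds themselves favour abundant ones. The same thresholds found 50 genes with a pseudocount of 0.5 and 27 with one of 5. In bulk muscle, fewer fibres and less of a message in each fibre cannot be told apart. The median log2 ratio of the set was -0.90 after 1 week (range over genes -1.70 to -0.70) and -0.81 after 2 weeks (-1.22 to -0.71). It was -0.40 after 4 weeks (-2.24 to 0.48) and -0.02 after 8 weeks (-0.10 to 0.19). The repaired shoulder was lower in every rabbit for 39 genes at 1 week and 33 at 2 weeks, and for 2 at 4 weeks. The ratios at 1 and 2 weeks chose the genes, and no share over all genes stands beside these counts, so they only describe the set.

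Rabbits of the same week differed in how low these genes were. After 1 week the median over the 41 genes ran from -1.02 in rabbit 7 and -1.01 in rabbit 6 to -0.68 in rabbit 8. At 2 weeks it was -1.71 in rabbit 59, -1.03 in rabbit 62, -0.68 in rabbit 64, -0.41 in rabbit 60 and -0.29 in rabbit 61. Rabbit 59 was the lowest of the 5 for 39 of 41 genes, and for 38.2% of all genes at the level minimum. At 4 weeks rabbits 63, 66 and 67 had medians of -0.40, -0.57 and -0.59, and rabbit 68 was at 0.12. At 8 weeks rabbit 1 was at 0.26 and rabbits 2 and 4 at -0.20 and -0.15. Of the 41 genes, 9 were below 0 in rabbit 1 at that time, 31 in rabbit 2 and 29 in rabbit 4.

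**Figure D2:**
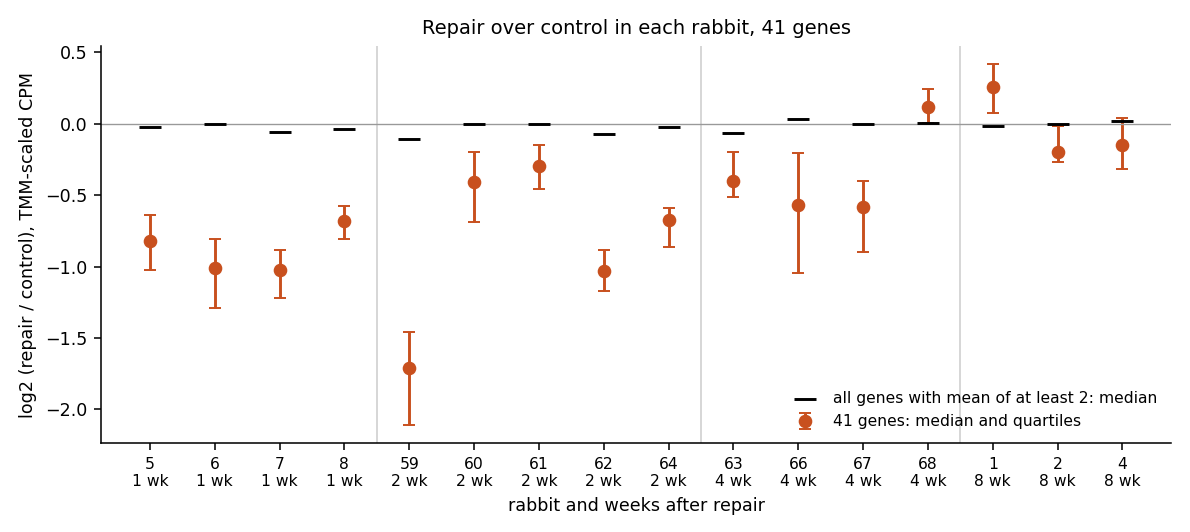
Log2 ratio of repair over control on TMM-scaled CPM (y axis) in each rabbit (x axis, grouped by week): orange points are the median over the 41 genes with the quartiles as bars, black dashes the median of all genes with a mean of at least 2. Rabbit 59 is lowest at -1.71, rabbit 68 stands at 0.12 beside -0.40 to -0.59 in the other rabbits of 4 weeks, and the dashes stay near 0; these ratios at 1, 2 and 8 weeks chose the genes.

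Rabbit 59 also stood apart in what its repaired muscle held. The summed level of 12 fibroblast markers was 60077 TMM-scaled CPM in its repair library, 16866 in that of rabbit 62 and 782 to 2258 in the other 3 repair libraries of 2 weeks, against 869 to 1427 in the controls. Its 10 macrophage markers summed to 592, against 12.4 to 158 in the other repair libraries and 13.8 to 22.7 in the controls. Its 11 fibre markers, which include LDB3, summed to 12491, the lowest of the 5 repair libraries, of which rabbit 62 had 20124 and the others 42497 to 60032. The control of rabbit 59 held 23494 of these markers, also the lowest of the 2-week controls, which reached 63076. The control of rabbit 62 held 43484. In rabbit 68 at 4 weeks the fibroblast markers summed to 980, against 2871 to 6022 in the other 3 repair libraries, and the fibre markers to 54759, against 29181 to 52955. The part of cell makeup in the gene levels was not tested. Without rabbit 59 the thresholds on TMM-scaled CPM found 12 genes, 10 of them among the 41 and 2 with a symbol (MICAL2 and UGP2), and the median of the 41 genes at 2 weeks was -0.60, with 40 of 41 below 0. Without rabbit 1 they found 33 genes, of which 16 were among the 41.

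Genes of the sarcomere and its anchors came first in abundance. MYOM2 encodes a protein of the M band, where the thick filaments of fast fibres are cross-linked. Its level was 3304 ± 448 TMM-scaled CPM in controls and 1355 ± 867 in repaired muscle at 1 week (SD, n = 4 each), and 3877 ± 550 against 2241 ± 976 at 2 weeks (SD, n = 5 each). Rabbit 6 had 220, the lowest repair library of all, and a log2 ratio of -3.78. At 4 weeks the controls stood at 3106, 3474, 3296 and 3164 and the repaired muscles at 3464, 3379, 2728 and 4848. The groups overlapped and rabbit 68 was the highest. At 8 weeks the levels were 3096 ± 326 (SD, n = 4) and 3550 ± 829.1 (SD, n = 3).

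LDB3 encodes a PDZ and LIM domain protein of the Z disc, the border to which thin filaments attach. Controls were at 2226 ± 92.2 and repaired muscle at 935 ± 310 TMM-scaled CPM at 1 week (SD, n = 4 each), and at 2209 ± 259 and 1309 ± 537 at 2 weeks (SD, n = 5 each). The repair library of rabbit 59 held 385, and the other 4 of that week reached up to 1659. Without rabbit 59 the mean log2 ratio of 2 weeks moved from -0.92 to -0.47. At 4 weeks the controls lay at 2108, 2314, 2488 and 1980 and the repaired muscles at 1683, 1360, 1474 and 2063, lower in 3 of 4 rabbits. At 8 weeks they were at 1921 ± 273 (SD, n = 4) and 1912 ± 190 (SD, n = 3).

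MICAL2 oxidises actin and thereby shifts filaments towards disassembly. It was a rare message, at 26.9 ± 7.41 in controls and 15.5 ± 8.37 TMM-scaled CPM after repair at 1 week (SD, n = 4 each), and 30.6 ± 6.11 against 13.6 ± 6.25 at 2 weeks (SD, n = 5 each). In the 4-week libraries its controls held 18.7, 13.9, 6.52 and 22.8 and its repaired muscles 23.2, 11.9, 9.02 and 18.0. At 8 weeks the means were 25.1 ± 13.4 (SD, n = 4) and 19.1 ± 6.45 (SD, n = 3), with rabbits between -0.60 and 0.71 on the log2 scale. SH3BGR, a gene expressed in heart and skeletal muscle, was at 211 ± 33.3 against 148 ± 86.5 at 1 week (SD, n = 4 each) and 221 ± 37.6 against 146 ± 66.6 at 2 weeks (SD, n = 5 each). Its groups overlapped at both times and 1 of 5 rabbits of 2 weeks was above 0. Its 4-week controls held 239, 425, 238 and 169 and its repaired muscles 268, 197, 160 and 220. At 8 weeks its levels were 202 ± 36.3 (SD, n = 4) and 215 ± 45.9 (SD, n = 3).

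UGP2 makes UDP-glucose, the glucose donor of glycogen synthesis. Its counts are not whole numbers, so part of its reads were shared with other sequences. Controls were at 577 ± 135 and repaired muscle at 322 ± 120 TMM-scaled CPM at 1 week (SD, n = 4 each), and at 789 ± 105 and 388 ± 103 at 2 weeks (SD, n = 5 each), where no repair library (241 to 483) reached a control (650 to 900). At 4 weeks its controls stood close together at 704, 731, 672 and 707, and its repaired muscles at 577, 635, 577 and 910, rabbit 68 being the highest. At 8 weeks the levels were 566 ± 73.8 (SD, n = 4) and 522 ± 76.9 (SD, n = 3).

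A pair of the named genes belong to the ubiquitin system, which marks proteins for the proteasome. UBE2D1, a ubiquitin-conjugating enzyme with partly shared reads, was at 39.3 ± 8.20 in controls and 22.2 ± 2.59 TMM-scaled CPM after repair at 1 week (SD, n = 4 each), and at 64.5 ± 16.2 against 36.4 ± 9.94 at 2 weeks (SD, n = 5 each). At 4 weeks its controls held 92.5, 50.03, 48.3 and 72.6 and its repaired muscles 68.2, 39.04, 29.2 and 84.3. At 8 weeks it was at 31.8 ± 5.15 (SD, n = 4) and 28.2 ± 3.76 (SD, n = 3). CUEDC1 carries a CUE domain, a fold that binds ubiquitin. It was at 153 ± 7.83 and 63.7 ± 15.3 at 1 week (SD, n = 4 each), the repair libraries (52.9 to 85.8) well below the controls (143 to 162), and at 129 ± 27.2 and 77.9 ± 31.1 at 2 weeks (SD, n = 5 each). In the 4-week libraries its controls held 146, 245, 159 and 143 and its repaired muscles 108, 108, 98.0 and 155. At 8 weeks its levels were 147 ± 9.47 (SD, n = 4) and 138 ± 11.96 (SD, n = 3).

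The other named genes have roles outside the contractile apparatus or no role given here. KPNA4, an importin alpha that carries proteins into the nucleus, was at 261 ± 34.6 and 131 ± 21.98 TMM-scaled CPM at 1 week (SD, n = 4 each), and at 275 ± 19.4 and 166 ± 67.6 at 2 weeks (SD, n = 5 each), with no overlap at either time. Its 4-week controls held 293, 251, 221 and 261 and its repaired muscles 200, 169, 151 and 264. At 8 weeks it was at 256 ± 27.1 (SD, n = 4) and 231 ± 53.6 (SD, n = 3). EMC9, a subunit of the complex that inserts membrane proteins into the endoplasmic reticulum, was at 59.9 ± 8.18 and 36.3 ± 4.86 at 1 week (SD, n = 4 each), and at 44.5 ± 2.63 and 27.4 ± 10.9 at 2 weeks (SD, n = 5 each). At 4 weeks its controls held 60.5, 55.4, 57.7 and 44.97 and its repaired muscles 54.6, 40.2, 47.7 and 61.8, and at 8 weeks its means were 57.4 ± 12.1 (SD, n = 4) and 57.6 ± 18.7 (SD, n = 3).

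GCOM1 is a combined locus that runs through neighbouring genes. Its expected counts were whole numbers in every library, unlike those of UGP2 and UBE2D1. Whether reads of the neighbouring genes were counted with it was not tested. GCOM1 was at 75.03 ± 2.12 and 40.2 ± 3.79 TMM-scaled CPM at 1 week (SD, n = 4 each), and at 100.1 ± 11.2 and 58.8 ± 21.5 at 2 weeks (SD, n = 5 each). In the 4-week libraries its controls held 106, 99.9, 75.05 and 89.7 and its repaired muscles 79.98, 62.8, 54.99 and 90.2, and at 8 weeks its means were 68.9 ± 3.48 (SD, n = 4) and 63.9 ± 9.33 (SD, n = 3). MLLT11 was at 15.0 ± 2.27 and 8.16 ± 1.64 at 1 week (SD, n = 4 each), and at 22.7 ± 4.76 and 11.3 ± 5.44 at 2 weeks (SD, n = 5 each). Its 4-week controls held 23.6, 25.9, 19.2 and 17.9 and its repaired muscles 24.6, 21.4, 12.9 and 13.01, and at 8 weeks its means were 18.5 ± 5.83 (SD, n = 4) and 17.1 ± 6.27 (SD, n = 3). In rabbit 68 at 4 weeks, 9 of the 11 named genes were above their own control, all but MICAL2 and MLLT11.

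**Figure D3:**
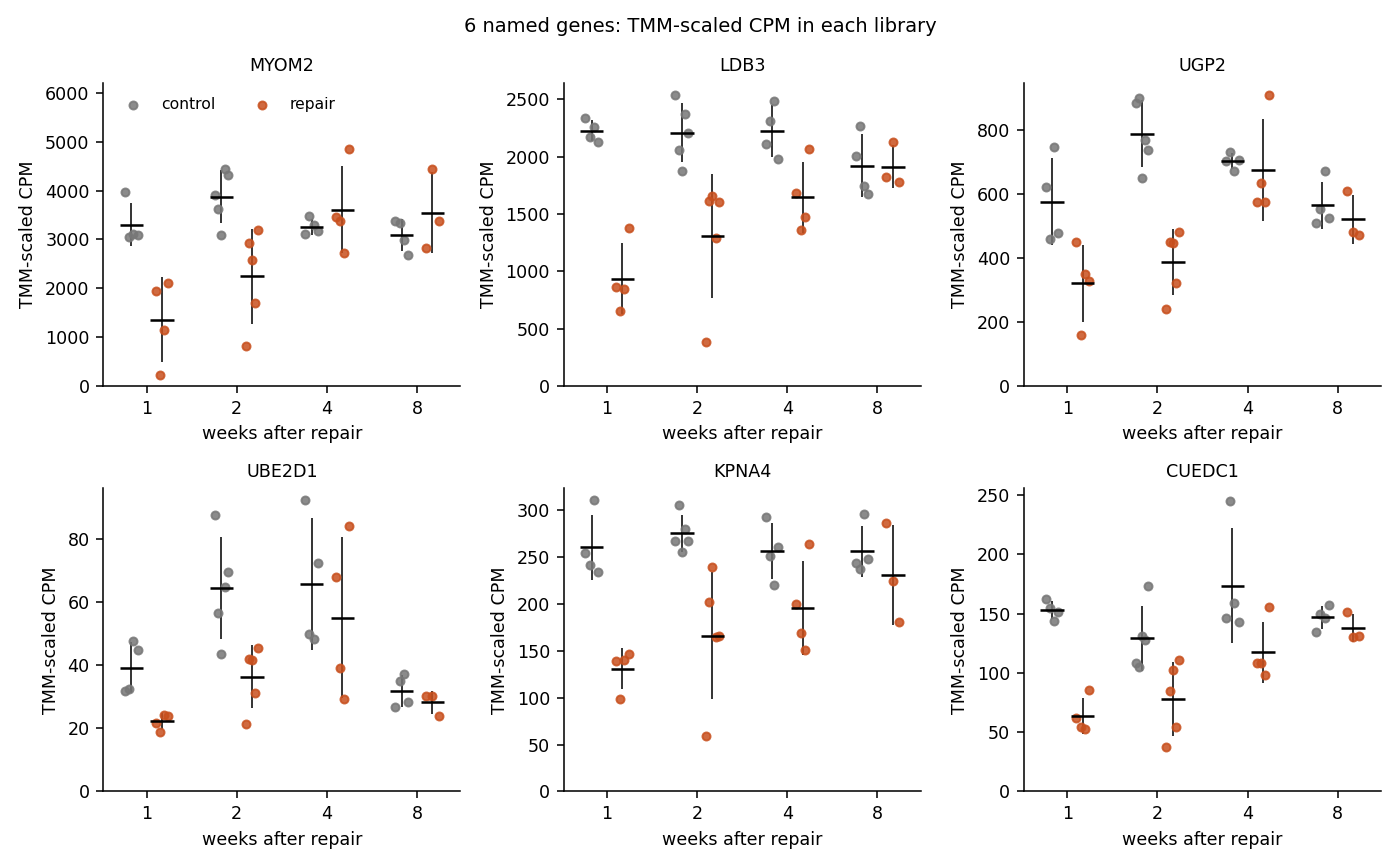
TMM-scaled CPM (y axis, linear from 0) of MYOM2, LDB3, UGP2, UBE2D1, KPNA4 and CUEDC1 in each library by weeks after repair (x axis); grey points are control and orange points repair libraries, lines are means and bars 1 SD. Repair libraries of LDB3 lie at 655 to 1379 at 1 week below controls of 2131 to 2339, and at 1782 to 2130 among the controls at 8 weeks.

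The 4-week comparison asks whether these genes were still lower midway, in rabbits whose ratios did not choose them. None of the 3 genes found on CPM and none of the 41 passed an adjusted p of 0.05 in limma-voom, where 16 of 12937 genes did (0.124%), 6 of them lower (0.0464%) and 10 higher (0.0773%). At an unadjusted p under 0.05, 0 of the 3 and 11 of the 41 were lower, beside 925 of all genes (7.15%). By direction alone, 37 of the 41 were below 0, beside 45.9% of all genes and 51.1% of those with a mean of at least 2. The median log2 fold change of the 41 was -0.41, beside a median of 0.05 over all genes and of -0.01 over those with a mean of at least 2. On CPM, where all genes lie above 0 in the median by 0.24 at that time, the median of the 41 was -0.14. On that scale 29 of the 41 were below 0, beside 22.5% of all genes with a mean CPM of at least 2. EMC9 and UGP2 moved to above 0 there, beside MYOM2 and MICAL2. Genes of 1 muscle move together, so these counts are a description of the 8 libraries. For 1 of the 41 all repair libraries lay below all controls, beside 3.93% of all genes, and for none all lay above, beside 5.19%.

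The median rests on 3 of the 4 rabbits in direction. Without the repair library of rabbit 68 it was -0.54, 39 genes were below 0 and 20 had an unadjusted p under 0.05, still with 0 called at an adjusted p of 0.05 beside 281 of all genes (2.17%). Without the repair library of rabbit 67 it was -0.26. The number at an unadjusted p under 0.05 was 3 without the repair library of rabbit 66 or of rabbit 67, 5 without the control of rabbit 66, 7 without rabbit 67's control, 7 without rabbit 63's repaired muscle, and 4 with all 34 libraries. With the rabbit as a block, which pairs the shoulders, 0 of the 41 and 364 of all genes were called (2.81%), 129 of them lower (0.997%). The edgeR quasi-likelihood test called 0 of the 41 as lower beside 105 of all genes (0.812%), DESeq2 2 of the 41 beside 2.13%, and limma-voom with sample quality weights 9 of the 41 beside 3.21%, KPNA4 and GCOM1 among them.

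Single genes had wide intervals at 4 weeks. CUEDC1 had a log2 fold change of -0.55 ± 0.24 (SE), with an adjusted p of 0.276 in limma-voom, and was lower in 3 of 4 rabbits. LDB3 was at -0.44 ± 0.30 (SE), KPNA4 at -0.41 ± 0.26 (SE) and GCOM1 at -0.38 ± 0.21 (SE), each lower in 3 of 4 rabbits and none called. UBE2D1, MLLT11, SH3BGR, EMC9 and UGP2 lay between -0.32 and -0.08. Single libraries moved these values: SH3BGR was at -0.03 without the control of rabbit 66, UBE2D1 at -0.06 and MLLT11 at -0.17 without the repair library of rabbit 67, and UGP2 at -0.24 without that of rabbit 68. MYOM2 was at 0.12 ± 0.45 (SE) and MICAL2 at 0.02 ± 0.48 (SE), so that changes of 0.76 below to 1.01 above the control on the log2 scale remain inside the 95% interval of MYOM2. Among the genes found on CPM, ENSOCUG00000010579 was at -0.61 ± 0.45 (SE) and ENSOCUG00000014252 at -0.39 ± 0.22 (SE), with adjusted p-values of 0.506 and 0.380 in limma-voom, each lower in 3 of 4 rabbits on this scaling and in 2 of 4 on CPM. ENSOCUG00000010579 moved to -0.23 without the control of rabbit 66 and to -0.92 without that of rabbit 67. For ENSOCUG00000028195, at 0 in all 4 repair libraries, the fitted fold change depends on the prior count and is not given.

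Of the genes without a symbol, ENSOCUG00000016658 had the smallest p at 4 weeks among the 41, with a log2 fold change of -0.75 ± 0.24 (SE) and an adjusted p of 0.136 in limma-voom. Its controls held 34.5, 52.5, 51.9 and 28.7 TMM-scaled CPM and its repaired muscles 26.1, 23.7, 18.7 and 29.8. ENSOCUG00000006635 was lower in 4 of 4 rabbits without overlap, with controls at 21.5, 24.3, 24.02 and 16.3 and repaired muscles at 15.6, 9.58, 14.5 and 14.3, a log2 fold change of -0.68 ± 0.25 (SE) and an adjusted p of 0.189 in limma-voom. The pair furthest above 0 by p were ENSOCUG00000025106, at 0.49 ± 0.38 (SE), and ENSOCUG00000022015, at 0.44 ± 0.39 (SE). Their controls spread from 15.7 to 83.1 and from 376 to 1510 TMM-scaled CPM, wider than their difference from the repaired muscles.

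**Figure D4:**
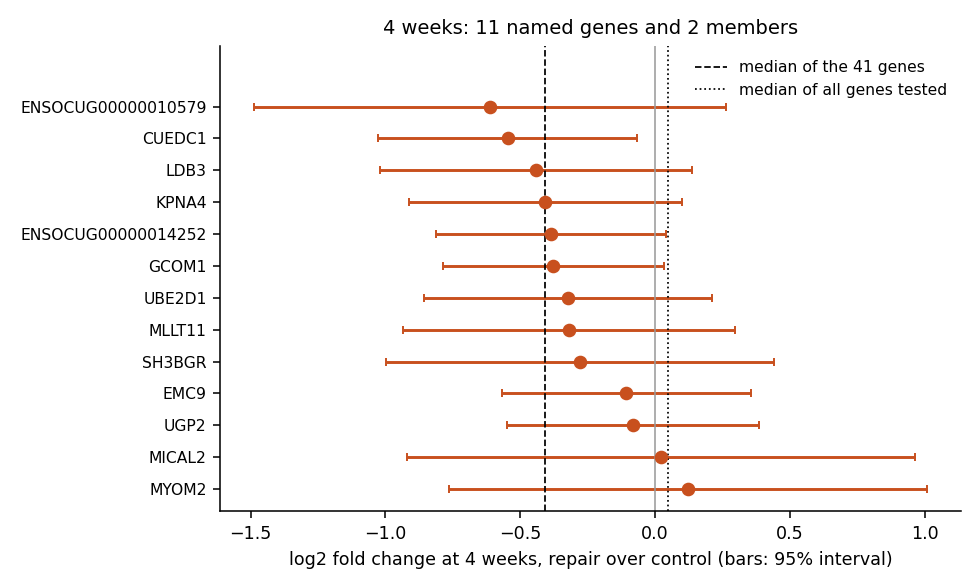
Log2 fold change of repair over control at 4 weeks (x axis) of the 11 named genes and of 2 of the genes found on CPM (y axis), with bars of 95% intervals; the dashed line is the median of the 41 genes (-0.41) and the dotted line that of all genes tested (0.05). The bars of all genes but CUEDC1 cross 0, and no gene passed an adjusted p of 0.05.

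Gene lists of the same functions are described beside the named genes. The lists were chosen with earlier results of these data known, so their counts are a description and no independent support. The shares over all genes given beside them include genes without a symbol. Lists hold only genes with a symbol at hand, and genes of the 41 are left out of the counts and medians below, since their early values chose them. At 1 and 2 weeks 6.88% and 7.92% of all genes were called lower and 6.81% and 7.95% higher in limma-voom; at 8 weeks no gene was called lower and 1 higher (0.00773%). Of 18 genes of the sarcomere, costamere and cytoskeleton of the fibre besides MYOM2 and LDB3, 1 was called lower and 1 higher at 1 week and 6 lower at 2 weeks. Their median log2 fold change was -0.34, -0.51, -0.32 and -0.08 at 1, 2, 4 and 8 weeks, beside 0.05, 0.06, 0.05 and 0.01 over all genes. MYH8, the perinatal myosin heavy chain, was the gene called higher, with 2.97 ± 0.80 (SE) and an adjusted p of 0.0190 at 1 week in limma-voom, and 3.01 ± 0.76 (SE) with an adjusted p of 0.0805 at 4 weeks. FHOD3, a formin of the sarcomere, was at -0.71 ± 0.29 (SE) and MLIP at 0.55 ± 0.24 (SE) at 4 weeks, neither called.

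Of 16 genes of glycogen and glycolysis besides UGP2, 2 were called lower and 1 higher at each of 1 and 2 weeks. The medians were -0.53, -0.37, -0.22 and -0.06. HK2, which phosphorylates glucose, was lower in 4 of 4 rabbits at 4 weeks at -0.79 ± 0.23 (SE) and still stood at -0.93 ± 0.26 (SE) at 8 weeks, with adjusted p-values of 0.121 and 0.999 in limma-voom. PPP1R3B, a glycogen-targeting subunit of protein phosphatase, was at -1.85 ± 0.95 (SE) at 4 weeks, and PYGB, the brain form of glycogen phosphorylase, at 0.68 ± 0.41 (SE). Of 31 genes of the proteasome and ubiquitin system besides UBE2D1, 3 were called lower at 1 week and 21 at 2 weeks, and none higher. Their medians were -0.25, -0.46, -0.22 and -0.06. ASB10, a substrate adaptor of ubiquitin ligases, was at -1.12 ± 0.29 (SE), -1.43 ± 0.29 (SE), -1.18 ± 0.30 (SE) and -0.79 ± 0.31 (SE) in the order of the time points, called at 1 and 2 weeks, with an adjusted p of 0.0816 in limma-voom at 4 weeks. PSMB7, a proteasome subunit, was at -0.45 ± 0.14 (SE) and NEDD8, a ubiquitin-like modifier, at -0.36 ± 0.13 (SE) at 4 weeks, each lower in 4 of 4 rabbits and not called.

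The mitochondrial lists hold none of the 11 genes with a symbol among the 41. Genes without a symbol could be neither listed nor left out by name, so mitochondrial genes among them would go unseen. COX4I1, which met the thresholds with TMM scaling, was left out of the 41 by name and is counted in its list. Of 31 genes of the respiratory chain and ATP synthase, 12 were called lower at 1 week and 13 at 2 weeks, and of 30 genes of mitochondrial import, folding and shape 9 and 10. For mitochondrial gene expression 6 and 8 of 31 were called lower, for the oxidation of fatty and branched-chain amino acids 4 and 8 of 23, and for the TCA cycle and pyruvate 4 and 1 of 10. Their medians at 4 weeks lay between -0.34 and -0.03 and at 8 weeks between -0.20 and 0.01. COX7A2, a subunit of cytochrome c oxidase, was at -0.55 ± 0.18 (SE) at 4 weeks and 0.01 ± 0.19 (SE) at 8 weeks, and BNIP3, a mitophagy receptor, at -0.76 ± 0.27 (SE) and -0.36 ± 0.31 (SE), each lower in 4 of 4 rabbits at 4 weeks. COX10 and BCS1L, which assemble respiratory complexes, were at -0.44 ± 0.19 (SE) and -0.48 ± 0.17 (SE) at 4 weeks. SLC25A20, the carnitine carrier of the inner membrane, was called higher at 1 week at 0.67 ± 0.17 (SE), with an adjusted p of 0.0144 in limma-voom, and was higher in 4 of 4 rabbits at 4 weeks at 0.33 ± 0.17 (SE).

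None of 14 cytosolic ribosome genes was called at any week, with medians of -0.02, -0.13, -0.26 and 0.11. Of 17 genes of excitation, calcium and ion channels none was called at 1 week and 2 lower at 2 weeks, with medians of -0.46, -0.34, -0.35 and -0.16. Of 16 genes of muscle growth, identity and clock, 2 were called lower and 1 higher at each of 1 and 2 weeks. FGF6, a growth factor of skeletal muscle, was at -2.07 ± 0.48 (SE) and -1.58 ± 0.48 (SE) with adjusted p-values of 0.00768 and 0.0292 in limma-voom, and at -1.50 ± 0.64 (SE) and -1.06 ± 0.50 (SE) at 4 and 8 weeks, not called. IGF1 went the other way, at 1.78 ± 0.76 (SE), 2.81 ± 1.14 (SE), 2.49 ± 1.44 (SE) and 0.77 ± 0.88 (SE) in the order of the time points, not called. CDON was called higher at 2 weeks at 1.56 ± 0.46 (SE), with an adjusted p of 0.0269 in limma-voom. At 4 and 8 weeks no gene of any list was called in limma-voom, beside 16 (0.124%) and 1 (0.00773%) of all genes.

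Markers of other cell types stood beside these changes. Of the fibroblast markers 2 of 12 were called higher at 1 week and 6 of 12 at 2 weeks, and of the adipocyte markers 5 of 5 and 3 of 5. The 5 adipocyte markers are ADIPOQ, LIPE, THRSP and 2 entries of SCD. The other symbols of that list of 8 were not among the genes tested. At 4 weeks 1 of 5 adipocyte markers was called higher, with a median log2 fold change of 2.48 over the 5 and sums of 343 to 949 TMM-scaled CPM in repaired muscle against 97.7 to 189 in controls. At that time no fibroblast or fibre marker was called, with sums of 980 to 6022 against 682 to 1382 and of 29181 to 54759 against 39068 to 97946. The summed adipocyte markers were at 618 to 1718 TMM-scaled CPM in repaired muscle and 172 to 261 in controls at 1 week, and at 349 to 564 against 174.2 to 337 at 8 weeks. The fibre markers summed to 10357 to 55446 in repaired muscle against 51238 to 65752 at 1 week, lowest in rabbit 6, and to 30062 to 61800 against 43724 to 60142 at 8 weeks. Of the 11 fibre markers, 1 was called lower at 1 week and 2 at 2 weeks, beside 6.88% and 7.92% of all genes, and none higher. They include LDB3, which its early values chose. Of macrophage markers 1 of 10 was called higher at 1 week, and of endothelial and nerve markers 2 of 9 and 1 of 4 at 2 weeks. None of the markers of smooth muscle and pericytes (7), lymphocytes (5) or tendon and cartilage (6) was called at any week, and no marker tested was at 0 in all libraries. The tendon and cartilage markers still had median log2 fold changes of 3.17, 3.20, 1.79 and 2.53 at 1, 2, 4 and 8 weeks. They summed to 214 to 361 TMM-scaled CPM in repaired muscle against 25.4 to 44.8 in controls at 1 week. At 2, 4 and 8 weeks the ranges of their sums overlapped. The part of these cell types in the levels of the 43 genes was not tested.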

How the data were processed

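The authors sequenced stranded messenger RNA, aligned reads with STAR to OryCun2.0, and with RSEM on Ensembl release 91 made expected counts per gene, which the authors deposited unscaled. The 33 libraries held 9220035 to 28395188 counts (median 12127768), and rabbit 3's repair library 8756033. Intervals cover only the spread between these libraries. The members and gene lists were chosen with earlier results of these data known. Log2 ratios used CPM with a pseudocount of 1, as the rule states, and TMM-scaled CPM with the factors of the fit. The fit used limma-voom under R 4.3.3 with edgeR 4.0.16 and limma 3.58.1, on 33 libraries and 12937 genes with CPM over 1 in at least 1 library, 1 coefficient per group of treatment and time, and Benjamini-Hochberg adjustment over all genes. Counts were rounded for edgeR and DESeq2 1.42.0. Groups come from the labels' treatment and time codes, whose digits were read as 8 weeks of tenotomy and the weeks since repair. Shoulders with the same number are from 1 rabbit: residuals of the 16 pairs correlated at 0.0351 to 0.371 (median 0.215). Named are all genes with a symbol, those next to each threshold, up to 3 genes per list with the smallest 4-week p, and 2 unnamed genes in each direction. Symbols are human orthologs from the study's supplement; its fold changes and p-values were not used. No sequence or coordinate is given, since no genome of this build was used here. The fit was tested on simulated data. Alternatives are in the closing section. Figures used matplotlib 3.10.9.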

Additional observations from a re-analysis of the deposited data

Results flagged for a closer look

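In 96 groups of 4 or 5 libraries, 5 held a library set apart from the rest of its group, about as many as 1 in 20 by chance. KPNA4 was at 98.4 TMM-scaled CPM in the repair library of rabbit 6 at 1 week, below the 139 to 147 of the other 3. CUEDC1 was at 245 in the control of rabbit 66 at 4 weeks, above the 143 to 159 of the others; without that library its 4-week log2 fold change was -0.37 in place of -0.55. MYOM2 was at 3975 in the control of rabbit 5 at 1 week, above 3042 to 3112. ENSOCUG00000028195 was at 9.35 CPM in the repair library of rabbit 6 at 1 week and at 8.72 CPM in that of rabbit 61 at 2 weeks, with the other repair libraries of those weeks listed at 0.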

How the results depend on the processing

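The number of genes found depended on scaling more than on any other choice: 3 on CPM, 41 with TMM scaling, and, both added after the data were seen, 56 with TMM factors of all 34 libraries (all 41 among them) and 37 on CPM centred on the median of all genes (31 of the 41 among them). With rabbit 3 it was 9. Leaving out 1 rabbit gave 2 to 8 on CPM and 12 to 61 with TMM scaling, where a pseudocount of 5 gave 27 and the median over rabbits 19 (8 of them among the 41). Genes called at 4 weeks, 16 as fitted, numbered 5 with all 34 libraries, 50 with no filter, 326 in edgeR, 675 in DESeq2, 364 with the rabbit as a replicate block, 189 with the rabbit correlation, 1032 with quality weights and 0 with the 4-week libraries alone; leaving out 1 library gave 2 to 345, the highest without the repair library of rabbit 59 (345) or 68 (281). DESeq2 called 1 of the 3 genes (ENSOCUG00000028195, at 0 in 4 of 4 repair libraries), hence 1 of the 14 tested singly, and 2 of the 41; quality weights called 2 of the 14 and 9 of the 41. Of the 41, 0 to 1 were called without 1 library, the 1 without rabbit 59's repair library. Of 237 other list genes, 0 were called as fitted, 2 in edgeR, 9 in DESeq2, 6 with the block, 2 with the rabbit correlation, 23 with quality weights and 0 to 6 without 1 library. The median of the 3 genes at 4 weeks was -0.61, and -0.92 to -0.38 without 1 library, lowest without the control of rabbit 67. MICAL2 turned below 0 with no filter (-0.01; -0.0064), in edgeR (-0.0014), in DESeq2 (-0.0090), with quality weights (-0.36) and without any of 3 libraries (-0.35 to 0.27 without 1 library). MYOM2 turned below 0 without rabbit 68's repair library (-0.033 to 0.24) and EMC9 above 0 without that of rabbit 66 (-0.20 to 0.0038). The block changed no other call. The causes were not tested.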
